A study of Mus musculus with 10 samples.

Results

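The footprint of ribose methylation in mouse embryonic stem cells (ESCs) was described from both ESC libraries of the series. The positions were all 13400 rows of the ESC table that belong to the 45S pre-rRNA, out of 13591 positions of 45S and U2 in the series. The ESCs were untreated, grew on gelatin in serum with leukemia inhibitory factor (LIF), and gave total RNA for 2 biological replicates, A and B. Their strain, sex and passage are not given in the labels, and the series' tables hold 45S and U2 only, so the cell type could not be checked against marker genes. The series also holds 8 libraries of neurons made from ESCs by doxycycline-induced Ngn2, a transcription factor that drives neuronal fate. Of these, 4 libraries of 2 control sets, which received a non-targeting antisense oligonucleotide, are used below for their scores only.

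The 45S pre-rRNA is the long transcript of RNA polymerase I from which 18S rRNA, a short rRNA of the large subunit and 28S rRNA are cut, in that order. Box C/D small nucleolar RNAs pair with it and guide the methyltransferase fibrillarin to single nucleotides, where it adds a methyl group to the 2′ oxygen of the ribose. 18S rRNA forms the small ribosomal subunit, which holds the decoding centre. 28S and the short rRNA belong to the large subunit, which holds the peptidyl transferase centre. Embryonic stem cells divide fast and make ribosomes at a high rate.

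RiboMeth-seq breaks RNA with mild alkali, here a bicarbonate buffer, for a time that the labels give only as a range and not per library. A methylated ribose blocks the break beside it, so few fragments begin there. The score at a position is 1 minus its 5′ ends divided by a weighted mean of ends over its 12 nearest neighbours, 6 upstream and 6 downstream, here called the flanking mean, and values below 0 are set to 0. A score near 1 means that almost no fragments began at the position. The table does not state whether a position is the methylated base or its neighbour, and no 45S sequence was used here, so positions are given by their number in the table, without a base.

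Both libraries placed nearly all ends in 3 dense regions, taken by their order as 18S, a short segment, and 28S. Library A held 18914207 ends and library B 16170997. 18S, at 45S 4010 to 5859, took 31.1% of the ends in A and 32.0% in B. The short segment, at 6829 to 6998, took 4.93% and 5.21%. 28S fell into 8 dense stretches between 8096 and 12804, which took 61.7% and 60.7%. The 7 sparse intervals between these stretches, from 39 to 503 positions long, held 0.916% and 0.868%. The remaining spacer held little: the median position of the 5′ spacer had 17 ends in A and 13 in B, against 1305 and 1219 in 18S. In such bulk RNA, more precursor per cell and more cells with precursor cannot be told apart.

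**Figure D1:**
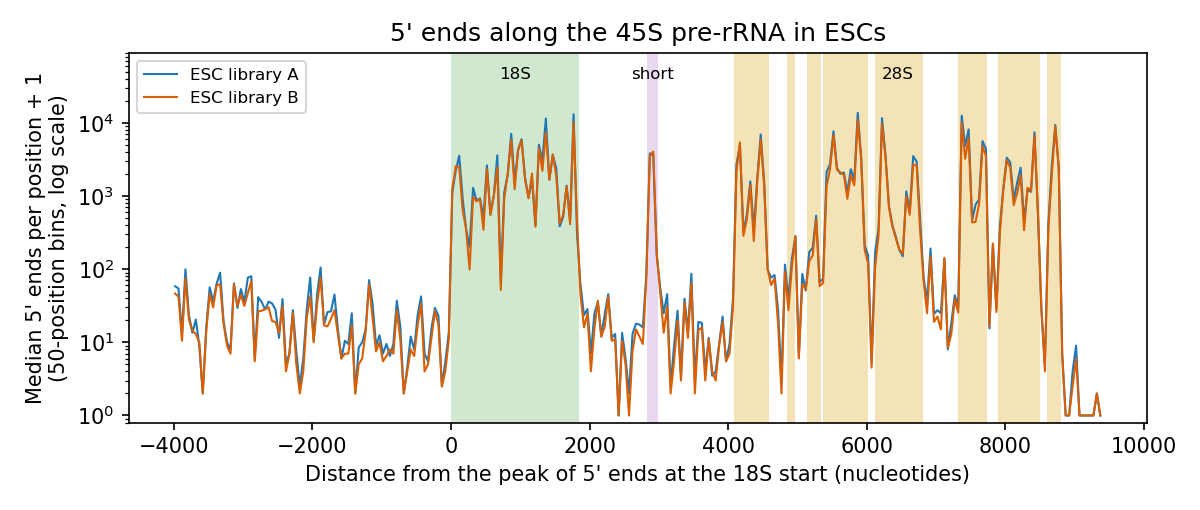
Median number of 5′ ends per position plus 1, on a log scale, in bins of 50 positions along the 45S pre-rRNA. The x axis gives the distance from the peak of ends at the 18S start. Lines are the 2 ESC libraries and shading marks the dense stretches of 18S (green), the short segment (purple) and 28S (yellow). The lines run together, and 28S is broken by 7 sparse intervals.

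Mature 5′ ends stood out as peaks, which are natural ends of the molecules as well as places where alkali could cut. The highest count in the table was at 45S 8122, at the start of 28S, with 608332 ends in A and 466474 in B, or 3.22% and 2.88% of all ends. In the short segment, 45S 6876 had 163712 and 146707 ends and 45S 6877 had 118944 and 103839. The remaining leaders of the dense regions were 45S 8135, with 51854 and 35537 ends, and 45S 4987 inside 18S, with 44191 and 40309. The 18S start had a smaller peak, at 45S 4006, with 6876 and 9699 ends. These peaks are high in both libraries.

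The spacer had its own peaks. After 45S 4006, the highest were at 45S 650 (5603 and 4360 ends in A and B), 45S 651 (4997 and 3992) and 45S 657 (3668 and 2743) in the 5′ spacer, the part of the precursor where processing of the mouse transcript is known to begin. The next, 45S 11802, with 3521 and 2395 ends, lay in a sparse interval inside 28S. All 5 were high in both libraries.

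A position is called protected here when its score was at least 0.75 and its flanking mean at least 100 ends, in both libraries. This held for 689 positions, 5.14% of the 13400. In 18S 183 of 1850 positions were protected, in the short segment 21 of 170, and in 28S 382 of 3352. Of these, 6 positions of the short segment and 9 of 28S lie before the start peaks at 45S 6876 and 45S 8122, within the dense regions but upstream of the mature ends. The sparse intervals of 28S added 68 and the spacer outside 28S added 35. Among positions with enough ends to be judged, the share was 10.6% in 18S, 15.9% in the short segment, 12.0% in 28S and 17.0% in the sparse intervals. These are levels of one group of cells, with 2 libraries and no control, so no test was made.

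Most positions were not protected. In the dense regions, with a flanking mean of at least 100, 43.2% of positions in A and 43.6% in B had a score of 0. The median score was 0.106 in A and 0.0928 in B. At the other end, 248 dense positions reached 0.9 in both libraries, 118 reached 0.95 and 22 reached 0.99. Of these 22, 10 were in 18S and 12 in 28S, and the short segment had no position at 0.95 in both. The minimum thus sets the count: in 18S, 423 positions passed at 0.5 and 81 at 0.9, and in 28S 811 and 164.

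The score can be raised by a strong neighbour as well as by a gap. For this reason the 586 protected positions of the dense regions were measured in 2 further ways: with a window of 2 positions on each side, and with a median over the 12 neighbours in place of their weighted mean. The first left 183 positions below 0.75 in a library and the second 171. All 3 measures were met by 341 positions, none of them before a start peak, which were 122 in 18S, 4 in the short segment and 215 in 28S. In share, 66.7% of the protected positions of 18S met all 3 measures, 56.3% of those of 28S and 19.0% of those of the short segment. Where 1 flanking position made up at least 40% of the weighted flanking sum, beside 40 of the 586 protected positions, 8 met all 3 measures. At all dense positions such a neighbour was present at 3.15%, and at protected positions at 6.83%.

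The deepest gaps of 18S were nearly empty in both libraries. The rule took the 10 highest mean scores among the 74 positions of 18S that met all 3 measures and had a flanking mean of at least 1000. At 45S 5497 there were 5 ends in A and 1 in B, against flanking means of 4189 and 3416, and the score was 0.9993 ± 0.000637 (SD, n = 2). At 45S 4525 there were 10 and 7 ends, with a score of 0.997 ± 0.000783 (SD, n = 2). At 45S 4541 there were 9 and 10 ends, and at 45S 5002 there were 9 and 15. Both counts are at most 15 at each of these 4 positions.

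The other 6 gaps of 18S were 45S 5390, 4652, 4034, 4053, 4584 and 5333, with mean scores from 0.991 to 0.993. Their ends ranged from 8 to 46 in A and from 9 to 37 in B. 45S 4034 lies 28 nucleotides past the peak at the 18S start and had 9 ends in each library. The widest gap between libraries among all 10 was at 45S 4584, with scores of 0.995 and 0.988 from 8 and 16 ends. Counting error alone gives 95% intervals for these scores, by the exact Poisson method, of 0.991 to 0.998 in A and 0.981 to 0.993 in B, so the libraries' intervals overlap. Such intervals take the flanking mean as fixed and treat reads as independent molecules.

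28S had gaps of the same depth. The rule took 10 of 124 positions. At 45S 9795 there were 4 ends in A and 3 in B, against flanking means of 2155 and 1769, and the score was 0.998 ± 0.000113 (SD, n = 2). At 45S 12166 there were 8 and 2 ends, with a score of 0.998 ± 0.00158 (SD, n = 2). At 45S 9459 there were 10 and 13 ends, at 45S 11596 there were 10 and 1, and at 45S 12310 there were 9 and 3. The remaining 5 were 45S 12144, 12018, 9560, 12001 and 10690, with mean scores from 0.990 to 0.995. Of the 10, 5 lie in the stretch from 11906 to 12502 and none in the last, from 12605 to 12804.

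The short segment had shallower gaps. Only 4 of its positions met the rule, and the first 3 were 45S 6906, with 455 and 584 ends and a score of 0.923 ± 0.0134 (SD, n = 2), 45S 6921, with 173 and 284 ends and 0.907 ± 0.0239 (SD, n = 2), and 45S 6951, with 902 and 754 ends and 0.903 ± 0.00303 (SD, n = 2). Here 173 or more fragments began at each gap, against at most 46 at the 10 named positions of 18S and at most 58 at those of 28S. With a median over the neighbours 9 positions of the segment were protected in place of 21, and with the window of 2 positions 12.

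45S 11405 in 28S is the position whose score fell most steeply with the Snord101 antisense oligonucleotide in the neurons, which is known from earlier results of these data. In ESCs it had 342 ends in A and 255 in B against flanking means of 12433 and 8666. Its scores were 0.972 and 0.971. The strongest single neighbour made up 13.8% and 14.1% of the weighted flanking sum, and with a median over the neighbours the scores were 0.971 and 0.969. Of the 382 protected positions of 28S, 52 had a higher mean score.

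**Figure D2:**
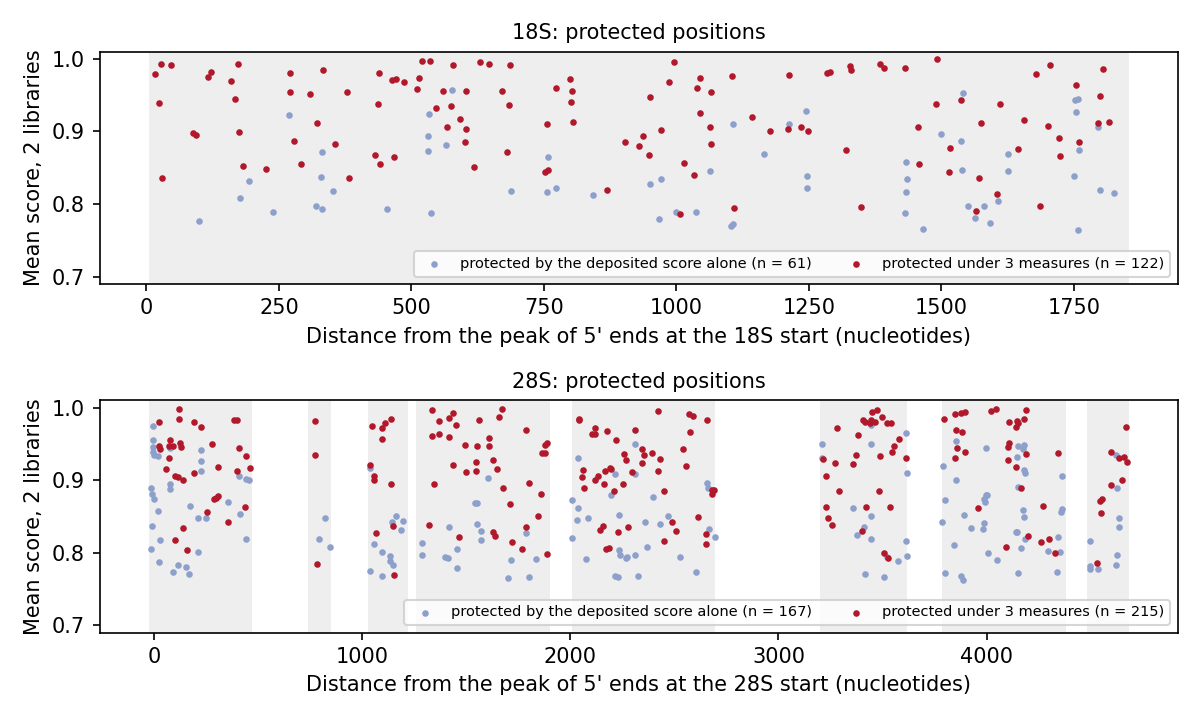
Mean score of the 2 libraries at each protected position of 18S (top) and 28S (bottom), by distance from the peak of ends at the start of each rRNA. Red points met all 3 measures, blue points were protected by the deposited score alone, and grey marks the dense stretches. Of the points, 122 of 183 in 18S and 215 of 382 in 28S are red.

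Protection was spread along 18S. In 4 consecutive blocks of its dense region, from the 5′ end, 41, 44, 45 and 53 positions were protected, and 30, 33, 31 and 28 met all 3 measures. The 28S stretches ranged from 5.36% of positions protected, at 8861 to 8972, to 14.0%, at 8096 to 8594, the first stretch of 28S. The first of these is a thinly covered stretch with a median flanking mean of 132 ends in the lower library, against 1289 in the second. Each of the 8 stretches held positions that met all 3 measures, from 3 to 51. In share these were 7.01% at 8096 to 8594, below 7.43% at 10131 to 10816 and 7.62% at 11320 to 11739. The 9 protected positions before the 28S start peak count in the 14.0% but did not meet all 3 measures.

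Within dense stretches, where 10.9% of positions were protected, 576 distances between neighbouring protected positions had a median of 5 nucleotides (quartiles 1 and 12). Directly adjacent positions accounted for 194 of them, 33.7%, whereas 32 distances were over 30 nucleotides and 3 over 50. In all, 311 of the 586 positions, 53.1%, had a protected position directly beside them. When only a window of 2 positions was used, that share was 32.9%.

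Positions that met all 3 measures, a subset and so necessarily sparser, had a median distance of 10 nucleotides (quartiles 4 and 20). Of these 341 positions, 95 had a neighbour of the same kind, or 27.9%. They formed 292 runs: 246 single positions, 43 pairs and 3 triplets. The 586 formed 392 runs, of which 21 had 4 or more positions. The neighbour is part of the flanking window, so the spacing and the measures are not independent.

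**Figure D3:**
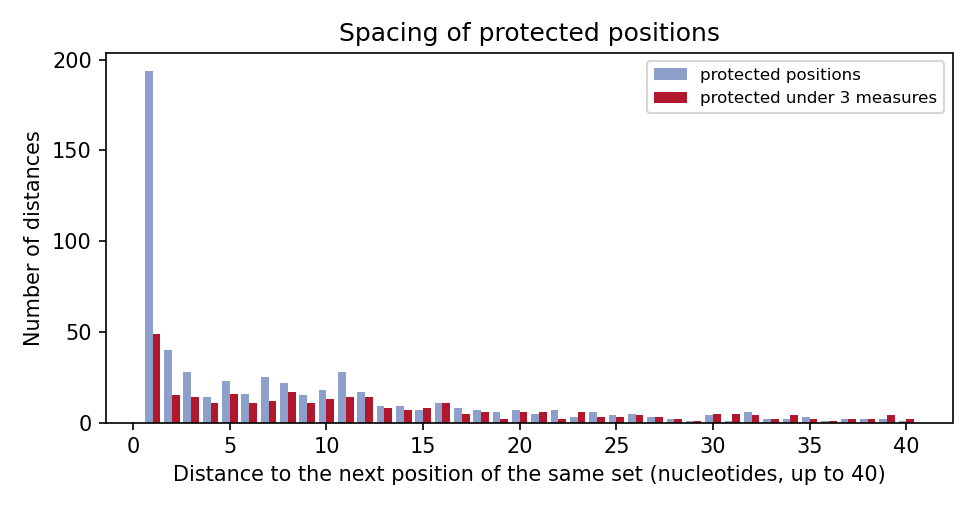
Number of distances between neighbouring protected positions of one dense stretch, for distances up to 40 nucleotides. Blue bars count all protected positions and red bars those that met all 3 measures. Distance 1 holds 194 of the blue and 49 of the red counts.

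The longest run, 45S 8195 to 8201 in 28S, shows what a run looks like. Its 7 positions had from 43 to 326 ends in A and from 52 to 310 in B. The position before it, 45S 8194, had 1280 and 1281 ends, and 45S 8203 to 8207, just past it, had between 5193 and 7840 in A and between 5375 and 7572 in B. The run is thus a shared trough beside a crest, seen in both libraries. In 18S the longest run was 5 positions, 45S 5437 to 5441, with mean scores from 0.787 to 0.987.

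The longest stretches without a protected position were 63 positions in both rRNAs. In 28S this was 45S 11416 to 11478, a well covered stretch (median flanking mean of 6219 ends in the lower library) in which the highest mean score was 0.757. The stretch of 18S, 45S 4695 to 4757, had a median flanking mean of 68.4 ends, under the minimum of 100, and a mean score of up to 0.959. Most of its positions were thus too thinly covered to be judged.

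Some deep gaps had a protected neighbour. Of the 209 positions that met all 3 measures and scored 0.9 or more in A and in B, the position before was protected too at 67 and the position after at 60, where 10.9% of all dense positions were protected. There were 48 with no other protected position within 6 nucleotides, which fixes that their neighbours were not protected. The ends at the 48 themselves are low by selection, since the score against the flanking median was among the 3 measures. Relative to the median of the 12 flanking counts, the median ends at such a position were 0.0376 in A and 0.0435 in B. One nucleotide upstream they were 0.945 and 0.961, and 1 nucleotide downstream 0.986 and 0.982.

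Farther out, the counts were lower on the downstream side of these 48 gaps. At 7 to 12 nucleotides upstream the median of the mean ends was 1.19 times the flanking median in both libraries, and at 7 to 12 nucleotides downstream it was 0.692 in A and 0.671 in B. The downstream side was lower at 34 gaps in A and 33 in B. Over all 5372 dense positions the downstream side was lower at 50.1% in A and 49.9% in B. Among all 209 positions of this depth, standing alone or not, it was lower at 54.1% and 53.1%. The quartiles of the 48 overlap widely, and fragment length and base composition were not analysed here.

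**Figure D4:**
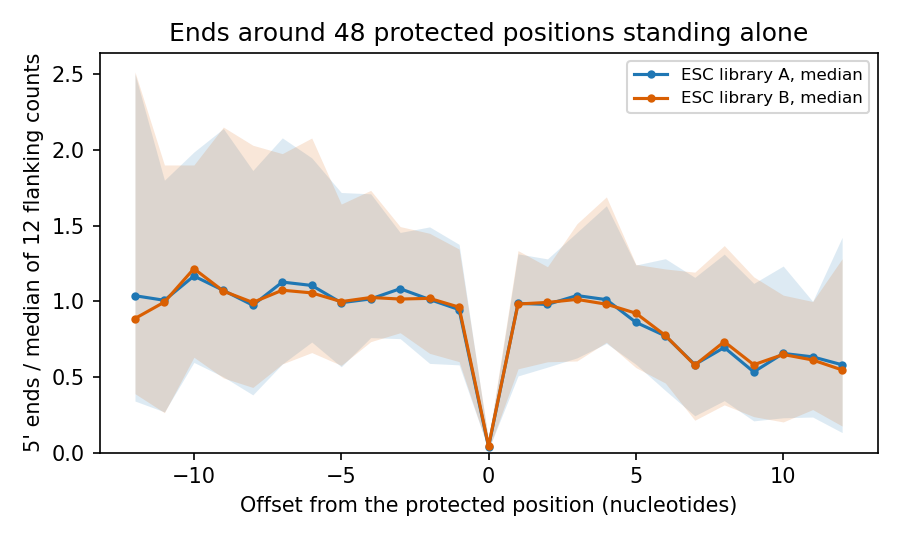
5′ ends at each offset from 48 protected positions that stood alone, divided by the median of the 12 flanking counts. Lines are medians of the 2 ESC libraries and shading spans the quartiles over positions. Ends at offset 0 are low by selection, with medians of 0.0376 (A) and 0.0435 (B). Medians are also lower from 5 nucleotides downstream on, at 0.861 and 0.921 there and 0.771 and 0.774 at offset 6.

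The libraries gave closely similar scores. Over 5040 dense positions with a flanking mean of at least 100, Pearson's r was 0.988 and Spearman's rho 0.978, across positions that share a library and are not replicates. The mean absolute difference was 0.0288. It was 0 by construction at the 2089 positions set to 0 in both, and 0.0492 over the other 2951. By mean score it was 0.0596 above 0 and under 0.25 (891 positions), 0.0606 at 0.25 to 0.5 (705), 0.0482 at 0.5 to 0.75 (720), 0.0317 at 0.75 to 0.9 (357) and 0.0127 at 0.9 or more (278). The scale is bounded at 0 and 1, which limits differences at both ends. It was also smaller at greater depth: 0.0425 over the 581 positions with the lowest flanking means and 0.0227 over the 1637 with the highest.

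Of the 341 positions that met all 3 measures, 286, or 83.9%, had overlapping exact Poisson 95% intervals of the ratio of ends to flanking mean. Their ends are low by selection, with medians of 82 in A and 77 in B, which widens such intervals. The share was not computed for all dense positions, where counts differed beyond counting error (chi-square per degree of freedom 45.3). The largest difference in score between libraries at the 341 was 0.0878, but a score of 0.75 in both was required of them. At mean scores from 0.75 to 0.9, without that condition, the largest was 0.179.

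Library A scored slightly higher. Of 2951 dense positions with unequal scores, 63.8% were higher in A, and the mean score was 0.277 in A and 0.267 in B. Among the 586 protected positions 414 were higher in A. As a result 76 positions reached 0.75 in A but not in B, and 24 in B but not in A. A is also the deeper library, and the part of depth in this offset was not tested.

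Disagreements of at least 0.2 were found at 9 of the 3188 dense positions with a flanking mean of at least 1000. The widest was at 45S 8300 in 28S, with scores of 0.0934 in A and 0.349 in B from 1267 and 672 ends. Next came 45S 5336, with 0.249 and 0, and 45S 9732, with 0.310 and 0.543. At 45S 9754 the scores were 0.270 and 0.0502, and at 45S 11343 they were 0.211 and 0.428. All 5 have scores below the minimum in both libraries, in the middle and lower part of the scale.

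**Figure D5:**
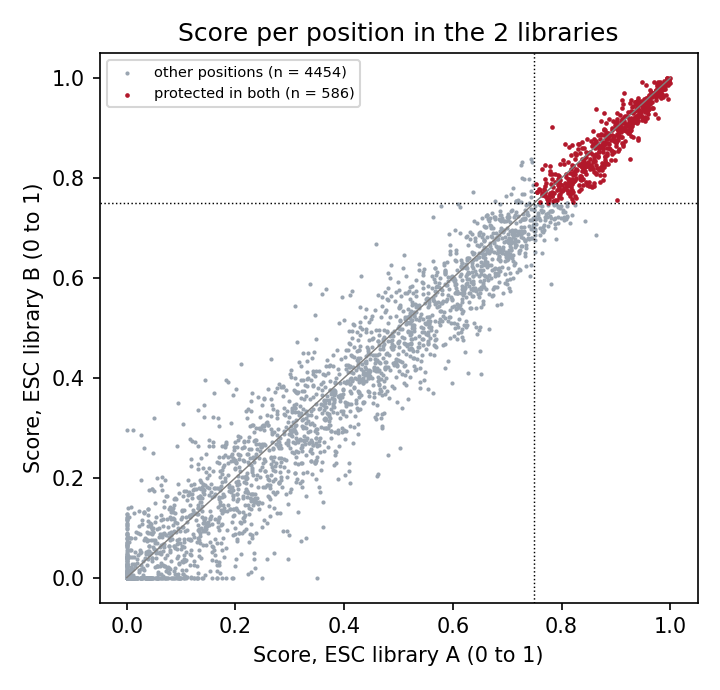
Score in library A (x axis) and in library B (y axis) at 5040 dense positions with a flanking mean of at least 100 in both. Red points are the 586 protected positions, dotted lines mark the minimum of 0.75 and the grey line marks equality. At a mean score of 0.9 or more the mean absolute difference was 0.0127.

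At the minimum itself the sets ran into each other. Just inside were 45S 12008 (0.775 in A and 0.750005 in B), 45S 12652 (0.820 and 0.751), 45S 6931 (0.760 and 0.751) and 45S 11540 (0.753 and 0.789). Just outside were 45S 12191 (0.810 and 0.749985), 45S 4874 (0.809 and 0.749), 45S 5618 (0.784 and 0.749) and 45S 5233 (0.758 and 0.748).

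Of the 35 protected positions in the spacer outside 28S, 9 lay within 6 nucleotides of 45S 4006, the peak at the 18S start. Of these, 45S 4007, 4008 and 4009 lie past that peak and count as spacer because the dense region begins at 4010. At 45S 4000 to 4005 there were 13 to 29 ends in A and 18 to 24 in B, and at 45S 4000 that single peak made up 96.2% of the weighted flanking sum in A. A further 5 lay at 45S 644 to 648, just before the peaks at 45S 650 and 651, with 62 to 159 ends in A. Only 10 of the 35 met all 3 measures. They include 45S 7007 to 7009, past the dense region of the short segment, with 9 to 16 ends in A and 2 to 23 in B. Before that region lie 45S 6811, 6813, 6814 and 6823. The dense regions were set by coverage and not by the mature ends. Spacer positions close past a dense region, such as 45S 7007 to 7009, can thus belong to a mature rRNA. Taken with the sparse intervals of 28S, library A alone would give 159 such positions in place of 103, and 4 remained with a flanking minimum of 1000.

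The control neurons give a second view of the same rRNA, although their tables add 5′ and 3′ ends and so measure something else. No test between them was made. A score of at least 0.75 in all 4 control libraries was found at 149 of the 5372 dense positions, 2.77%. Of the 586 protected ESC positions, 129 were among them, which is 22.0% of the ESC set and 86.6% of the control set. Of the 341 that met all 3 measures, 107 or 31.4% reached it, and of the other 245, 22 or 8.98%. Of the 209 that also scored 0.9 or more in each ESC library, 90 or 43.1% did.

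Most of the deepest ESC gaps were deep in control neurons too. Of the 10 named in 18S, 8 had scores of at least 0.75 in all 4 control libraries, against 2.77% of all dense positions. The same number held in 28S. All of these also reached 0.9, for which the share of all dense positions was not computed. In 18S the exceptions were 45S 4541, with control scores from 0.661 to 0.788, and 45S 5002, with 0.459 and 0.496 in one control set and 0 in both libraries of the other. In 28S they were 45S 9459, with 0.736 to 0.984, and 45S 12018, with 0.553 to 0.612. In the short segment 45S 6951 had 0.989 to 0.991 in the controls, whereas 45S 6921 had 0 in all 4 and 45S 6906 at most 0.0793. 45S 11405 had control scores from 0.975 to 0.990, but a score of at least 0.9 in both Snord101 control libraries was a condition for choosing it.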

How the data were processed

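The members, the minimums and the lists were chosen with earlier results of these data known. The authors deposited whole-number counts of read ends per 45S position, which per the file headers are 5′ ends in the ESC table and 5′ plus 3′ ends in the neuron tables. Per the submitters' processing notes, Trim Galore, cutadapt, Bowtie2 and bedtools were used. Their order and settings, the reference and its build are not given in the sources used here. The deposited score is a fraction from 0 to 1. It was recomputed from the counts with weights from 1.0 (nearest) to 0.5 (farthest) over 6 positions on each side, and was within 1e-06 at 13287 positions in A and 13316 in B, 100% of those scored. The score is blank at 113 and 84 positions.

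Dense stretches were runs of at least 100 positions with a rolling median over 101 positions of at least 5 ends per 1000000, as the mean of both ESC libraries. This rule was expected to give 1 stretch for 28S and gave 8. It was kept, and 28S joined into one span was added as an alternative after seeing the data. Spacer is every other position. Positions named in the text were the 10, 3 and 10 highest mean scores in 18S, the short segment and 28S, the 5 widest disagreements, the 5 highest counts in dense regions and in the spacer, the longest runs and free stretches, the position lowered by the Snord101 oligonucleotide, and those nearest the minimum. The longest spacer runs, positions between 45S 6811 and 7009 and those in the closing section were picked after their values were seen. Libraries A and B are described in the labels as biological replicates. To check that they are not one library deposited again, their counts over dense positions were compared (chi-square per degree of freedom 45.3), and they were counted as 2 samples. Counting intervals are exact Poisson at 95%. No statistical test between groups was made. The code for scores was tested on simulated data. Python 3.11.15, numpy 2.4.6, pandas 2.3.3 and scipy 1.17.1 were used.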

Additional observations from a re-analysis of the deposited data

How the results depend on the processing

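The counts of protected positions by region, the count under 3 measures, the neighbour share and the mean absolute difference were recomputed with other minimums, windows, dense regions and single libraries, where the setting applies. The gap profile, the named gaps and the overlap with the controls were not. With a minimum score of 0.5 the protected positions numbered 423 in 18S, 41 in the short segment, 811 in 28S and 200 in the spacer with the sparse intervals, 740 met all 3 measures, and 72.1% had a protected neighbour. With 0.9 these values were 81, 3, 164, 38, 131 and 36.3%. With a flanking minimum of 1000 they were 109 in 18S, 190 in 28S, 4 in the spacer, 202 under 3 measures and 47.8% with a neighbour. With no flanking minimum the spacer count was 1205 and the neighbour share 57.3%. The window of 2 positions gave 12 in the short segment and a neighbour share of 32.9%, and the median of the flanking counts gave 9, 45 in the spacer and 42.4%. With a dense minimum of 20 the spacer count was 214 and the share 50.7%, and with 28S joined into one span the spacer count was 35, since the sparse intervals then count as 28S. Leaving out a library gave 110 to 159 in the spacer and a neighbour share from 54.7% to 56.3%. For the other moves the cause was not tested. The mean absolute difference between the libraries stayed between 0.0249 and 0.0321. Of the 8028 positions of the spacer and sparse intervals, 681 had a flanking mean of at least 100 in both libraries. No paired analysis was possible because the ESC libraries form 1 group and no test was made.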

Other observations

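Some deep ESC gaps had no counterpart in the control neurons, whose tables count other ends. Of the 209 dense positions that met all 3 measures and scored 0.9 or more in each ESC library, 19 had a score of 0 in all 4 control libraries, 10 in 18S and 9 in 28S. That is 9.09%, against 32.1% of all dense positions. The deepest was 45S 9538 in 28S, with 71 ends in A and 87 in B against flanking means of 5690 and 5020, and scores of 0.988 and 0.983. Next by score was 45S 12300, with 9 and 5 ends against flanking means of 449 and 427, and scores of 0.980 and 0.988. There a single neighbour made up 70.5% and 67.2% of the weighted flanking sum, and with a median over the neighbours the scores were 0.798 and 0.841. 45S 5218 in 18S had 1 and 10 ends against flanking means of 271 and 238, and scores of 0.996 and 0.958. Whether the cell type or the choice of ends sets these scores cannot be told apart, since each table holds one of each.

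Of the 149 dense positions with 0.75 in all 4 control libraries, 20 were not protected in ESCs, or 13.4%, against 89.1% of all dense positions. Of the 20, 3 reached 0.75 in both ESC libraries but missed the flanking minimum, 10 had a lowest ESC score from 0.5 to 0.75, and 7 were under 0.5 in an ESC library. At 45S 5449 in 18S there were 8881 and 8753 ends in ESCs, with scores of 0.0662 and 0.104, whereas the controls had 0.817 to 0.897. At 45S 5212 both ESC scores were 0 from 550 and 492 ends, and the controls had 0.789 to 0.837. The others were 45S 5857, 5858, 8121, 8221 and 10484. Of these, 45S 5857 and 5858 lie at the end of the 18S region, where the flanking means in ESCs were under 100 ends, and 45S 8121 lies beside the peak at the 28S start.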
